A study of Mus musculus with 12 samples.

Results

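The serine/arginine-rich (SR) proteins are a family of RNA-binding splicing factors, and their own transcripts are spliced into coding and unproductive isoforms. The genes described here were chosen by symbol as Srsf1, Srsf2, Srsf3, Srsf4, Srsf5, Srsf6, Srsf7, Srsf9, Srsf10 and Srsf11, which are 10 of the 55536 annotated genes in the count table. GENCODE vM21 gives them 85 of the 141862 annotated transcripts, and they hold 77 of the 115403 nodes of the splicing table. A node is a stretch of a gene between splice sites, start sites or end sites.

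RNA was sequenced from CD8+ T cells of OT-I mice, whose transgenic T cell receptor recognises the ovalbumin peptide SIINFEKL on a C57BL/6J background. In 10 of the 12 libraries the cells had been transferred into C57BL6/J recipients that received the peptide, either with a rat IgG control (Ag, 5 libraries) or with agonist antibodies to the costimulatory receptors OX40 (CD134) and 41BB (CD137) (Ag+Costim, 5 libraries), and cells were recovered from spleen and lymph nodes. The labels give 4 days to harvest, and the study's methods give slightly less. The 2 Naive libraries came from OT-I mice without transfer or stimulation, so transfer, the host and antigen cannot be told apart in a comparison with them. The OT-I donors were Rag-deficient according to the methods, which give the age of the mice only as a range and state that both sexes were used. All cells therefore carried a single T cell receptor, and the transferred cells were sorted from recipients that kept their own T cells. The labels do not tie a library to a mouse, so the p-values below measure the spread between libraries.

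SR proteins carry 1 or more RNA recognition motifs and a domain of arginine-serine repeats. They bind exons and recruit the spliceosome, and several members also act in mRNA export and translation. Phosphorylation of the repeats by the SRPK and CLK kinases sets where they are found in the nucleus and when they act. Many SR genes limit their own output through an ultraconserved poison exon or a retained intron. Inclusion of such an exon brings in a premature stop codon, and the transcript is degraded by nonsense-mediated decay or stays in the nucleus.

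Internal exons that hold the annotated stop of a decay transcript and overlap no coding exon of the gene were found in 6 decay transcripts of the family in GENCODE vM21 on mm10, and they are called poison exons here. They are shown for Srsf3, Srsf7, Srsf9 and Srsf4, whose poison-exon isoforms were called in a comparison of transcript counts. The bases shown end at the stop codon and run 5′ to 3′ on the strand of the gene, with the stop codon in capitals.
Srsf3-201, exon 4, chr17:29039458-29039487, plus strand: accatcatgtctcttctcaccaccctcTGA
Srsf7-203, exon 4, chr17:80205054-80205081, minus strand: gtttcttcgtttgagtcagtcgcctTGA
Srsf9-205, exon 2, chr5:115328399-115328428, plus strand: cctgggttggagattacggattcacagTAG
Srsf4-203, exon 2, chr4:131884361-131884390, plus strand: gtaacccggttgtctcatgccccagctTAG
The stop codon ended 34 bases into the 456 bases of the Srsf3 exon and 28 bases into the 460 bases of the Srsf7 exon. It ended 82 bases into the 358 bases of the Srsf9 exon and 115 bases into the 207 bases of the Srsf4 exon. The remaining poison exons were those of Srsf11-206 and Srsf11-212. None of the 77 nodes of the splicing table overlapped these exons, so their inclusion was read from transcript counts alone.

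The libraries held 23976932 counts in Ag 4 and 39994606 to 49258758 in the other 11. All 6 CD8 T cell markers were measured, with summed levels of 6487 to 7009 CPM in Naive, 6390 to 8123 in Ag and 3251 to 4414 in Ag+Costim. For the marker sums in this paragraph, CPM are counts scaled by the library's total counts, without TMM. Summed levels of 5 proliferation genes were 31.1 to 32.7 CPM in Naive, 347 to 733 in Ag and 1686 to 2294 in Ag+Costim, so they moved with each comparison below, and their part in the results was not tested. The 6 erythroid markers summed to 588 to 6726 CPM in Ag and 14.0 to 211 in Ag+Costim, and the 4 B cell markers to 101 to 154 and 21.7 to 54.8 CPM, and their part was not tested either. In bulk RNA, fewer cells of a type and less RNA per cell cannot be told apart.

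Per unit of length, Srsf5 was the highest member in Naive and Srsf7 in both stimulated groups. TPM were computed from the transcript counts divided by annotated length, with the same total in every library. In Naive cells Srsf5 was highest at 759 ± 111 TPM (SD, n = 2), which was 32.4% of the family, and Srsf9 was lowest at 63.0 ± 3.73 TPM. In Ag, Srsf7 led at 526 ± 41.5 TPM (SD, n = 5), and the ranges of the next members, Srsf5, Srsf3, Srsf2 and Srsf9, each overlapped that of their neighbour in the order. Srsf1 was the lowest member in Ag at 49.0 ± 13.8 TPM, or 2.38% of the family, and its range overlapped that of Srsf4 just above it. In Ag+Costim, Srsf7 was again first at 593 ± 40.4 TPM and Srsf3 second at 463 ± 54.8 TPM, and neither range overlapped that of the next member. From the third place down, from Srsf5 to Srsf10, all neighbours overlapped. The family summed to 2207 and 2483 TPM in the Naive libraries, 1920 to 2251 in Ag and 2040 to 2884 in Ag+Costim.

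Costimulation was compared with antigen alone by edgeR's quasi-likelihood test on gene counts. Of the 10 members, 5 were higher in Ag+Costim than in Ag, and 2 were lower, at an adjusted p under 0.05. Among all 18817 genes tested, 53.1% were called, 26.6% higher and 26.5% lower. The median log2 difference was 0.33 over the members and -0.05 over all genes tested. Scaling by the upper quartile moves the median of all genes to -0.24, and no call on a member in this comparison changed under it. The ranges of CPM (here counts scaled by TMM library sizes) in the 2 groups did not overlap for the same 7 members. How often the ranges were apart among all genes tested was not computed.

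**Figure D1:**
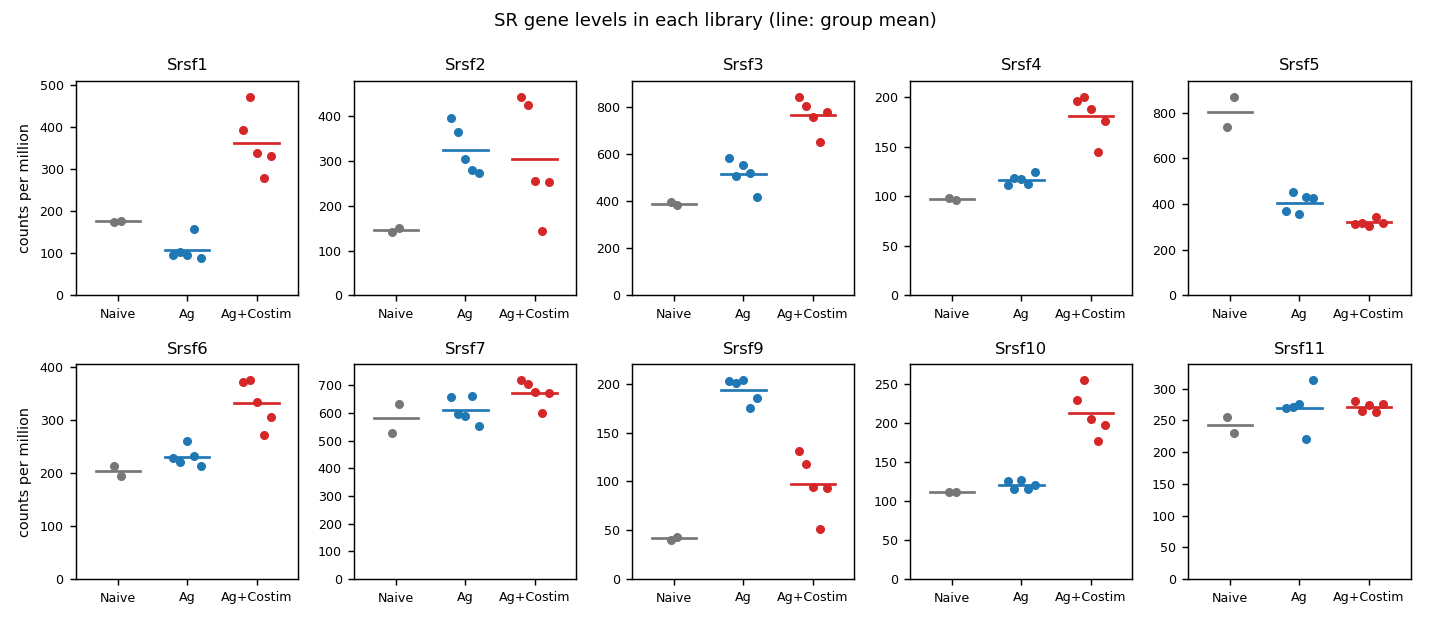
CPM of each SR gene (y axis, scaled by TMM) in every library of Naive, Ag and Ag+Costim (x axis), with a line at the group mean. Srsf1, Srsf3, Srsf4, Srsf6 and Srsf10 lie higher in all 5 Ag+Costim libraries than in any Ag library, and Srsf5 and Srsf9 lie lower.

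Srsf1, Srsf9, Srsf4, Srsf5 and Srsf6 carry a pair of RNA recognition motifs. Srsf1 (ENSMUSG00000018379.17, chr11:88047373-88053755, plus strand), a founding member of the family and a regulator of constitutive and alternative splicing, had the largest difference of the 10 between Ag+Costim and Ag. It stood at 96.0, 103, 96.9, 158 and 88.2 CPM in Ag 1 to Ag 5, at 394, 471, 339, 279 and 330.5 CPM in Ag+Costim 1 to 5, and at 174 and 177 CPM in Naive. Ag 4, the shallowest library, was high in its group, and all Ag libraries lay below both Naive libraries. The log2 difference of Ag+Costim against Ag was 1.74 ± 0.17 (SE, adjusted p = 1.80e-06) in edgeR, and it was 1.92 without Ag 4.

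Srsf9 (ENSMUSG00000029538.14, chr5:115327177-115333080, plus strand), a close relative of Srsf1 with a short arginine-serine domain, ran the other way. It stood at 203, 201, 204, 175 and 186 CPM in the 5 Ag libraries and at 131, 118, 93.8, 51.2 and 92.9 CPM in Ag+Costim. The Naive libraries held 40.3 and 42.6 CPM. Ag was therefore the highest group and Naive the lowest, with no overlap between any of the 3. The log2 difference was -0.99 ± 0.19 (SE, adjusted p = 5.19e-04) in edgeR for Ag+Costim against Ag and 2.22 ± 0.28 (SE, adjusted p = 2.77e-05) for Ag against Naive.

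Srsf4, Srsf5 and Srsf6 form a structural subgroup, and they did not move together. Srsf4 stood at 111, 119, 117, 112 and 124 CPM in Ag and at 196, 200.2, 188, 145 and 176 CPM in Ag+Costim, a log2 difference of 0.63 ± 0.09 (SE, adjusted p = 4.42e-05) in edgeR. Srsf6, which acts in exon recognition and is a known regulator of tau splicing, stood at 229, 221, 260.2, 232 and 213 CPM in Ag and at 373, 376, 334, 271 and 306 CPM in Ag+Costim, a difference of 0.52 ± 0.10 (SE, adjusted p = 5.31e-04). In both genes Ag+Costim 4 was the lowest of its group and still above every Ag library. Srsf5 (ENSMUSG00000021134.17, chr12:80945504-80950507, plus strand) was lower in every comparison. It held 737 and 869 CPM in Naive, 369, 451, 356, 429 and 427 CPM in Ag and 313, 318, 303, 345 and 319 CPM in Ag+Costim. The groups stood in that order with no overlap. In edgeR the log2 difference was -0.98 ± 0.11 (SE, adjusted p = 9.87e-06) for Ag against Naive and -0.35 ± 0.09 (SE, adjusted p = 0.00393) for Ag+Costim against Ag.

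Srsf2, Srsf3, Srsf7, Srsf10 and Srsf11 carry a single RNA recognition motif. Srsf3 (ENSMUSG00000071172.13, chr17:29032628-29043373, plus strand), the smallest member, which couples splicing to polyadenylation and export, stood at 582, 505, 555, 518 and 419.7 CPM in Ag and at 842, 803, 758, 651 and 780.2 CPM in Ag+Costim. The Naive libraries held 395 and 385 CPM, below every Ag library. Its log2 difference in edgeR was 0.57 ± 0.10 (SE, adjusted p = 2.39e-04) for Ag+Costim against Ag. A correction for length, taken as all annotated exon bases of each gene, lowered it to 0.23 with an adjusted p of 0.0818. Srsf10, which represses splicing when dephosphorylated, stood at 126, 116, 127, 116 and 121 CPM in Ag and 230.3, 255, 205, 177 and 197 CPM in Ag+Costim. Its difference was 0.81 ± 0.09 (SE, adjusted p = 7.58e-06) in edgeR. Both Naive libraries, at 111 and 111 CPM, lay below every Ag library, and the difference of Ag against Naive was 0.12 ± 0.12 (SE, adjusted p = 0.458).

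The other 3 members were not called between Ag+Costim and Ag. Srsf2 (ENSMUSG00000034120.18, chr11:116849901-116853094, minus strand), a member that stays in the nucleus, stood at 396, 364, 305, 280.2 and 273 CPM in Ag and at 443, 424, 256, 144 and 254 CPM in Ag+Costim. The Ag+Costim libraries lay both above and below the Ag libraries, with Ag+Costim 4 the lowest. The difference was -0.09 ± 0.24 (SE, adjusted p = 0.783) in edgeR and 0.11 without Ag+Costim 4. Srsf7 (ENSMUSG00000024097.11, chr17:80200080-80207307, minus strand), which has a zinc knuckle beside its RNA recognition motif and acts in mRNA export, held 554 to 662 CPM in Ag and 599 to 718 CPM in Ag+Costim, a difference of 0.14 ± 0.08 (SE, adjusted p = 0.185). Srsf11 held 220.2 to 313 and 264 to 281 CPM, a difference of 0.01 ± 0.09 (SE, adjusted p = 0.943). Under the correction for length, Srsf11 was called lower at -0.33 (adjusted p = 0.0136, edgeR).

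Ag+Costim 4 had the lowest level of its group in 9 of the 10 members, all but Srsf5. Without it, the counts of members called in this comparison remained 5 higher and 2 lower.

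Ag was compared with Naive in the same fit, and this comparison shares the Ag libraries with the comparison above. Of the 10 members, 3 were higher in Ag and 2 were lower, beside 46.7% called among all 18817 genes, 24.2% higher and 22.5% lower. The members that rose were Srsf9 and Srsf3, described above, and Srsf2, which stood at 141 and 150.1 CPM in Naive and above that in every Ag library. The log2 difference of Srsf2 was 1.15 ± 0.34 (SE, adjusted p = 0.0142) in edgeR. Srsf3 rose by 0.40 ± 0.13 (SE) on the log2 scale. Srsf5 and Srsf1 fell, with log2 differences of -0.98 ± 0.11 and -0.70 ± 0.21 (SE), and the call on Srsf1 was lost under a correction for length (-0.43, adjusted p = 0.122 in edgeR). These counts rest on the 2 Naive libraries. With either of them left out, 1 member was called higher and 1 lower, with the lone Naive library assumed to vary like the other groups. Under the correction for length 7 members were higher and 1 lower.

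Against Naive, Ag+Costim had 7 members higher and 1 lower, beside 52.3% of all genes called, 26.9% higher and 25.4% lower. The log2 difference was 1.23 ± 0.26 (SE, adjusted p = 0.00152) in Srsf9 and 1.06 ± 0.34 (SE, adjusted p = 0.0186) in Srsf2 in edgeR, and Srsf1, Srsf3, Srsf10, Srsf4 and Srsf6 lay between 0.70 and 1.05. Srsf5 was lower, at -1.33 ± 0.11 (SE, adjusted p = 4.21e-07). The call on Srsf2 was lost with either Naive library left out and on the authors' FPKM, where the call on Srsf10 was lost too (0.15 on the log2 scale). Srsf7 and Srsf11 were called in no comparison of gene counts.

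Gene counts do not separate coding from unproductive RNA. Transcripts were therefore grouped by their annotated type, and every transcript of a member that is not annotated as protein coding is called unproductive here. The types are nonsense-mediated decay, retained intron and transcripts without a reading frame. StringTie assigned single-end reads of 100 bases to these transcripts, so the isoform values are estimates. Over all coding genes, unproductive types held 13.9% and 14.6% of the TPM in Naive, 9.05% to 10.8% in Ag and 7.44% to 7.90% in Ag+Costim.

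**Figure D2:**
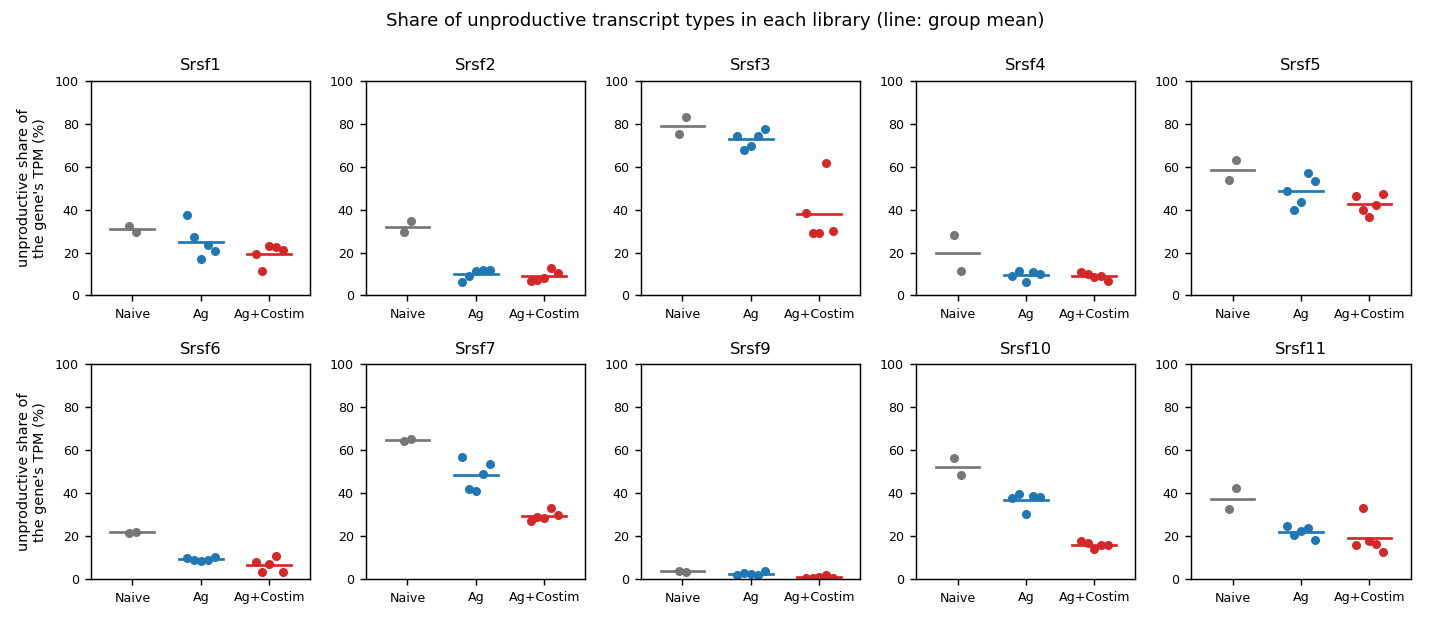
Share of each SR gene's TPM that came from unproductive transcript types (y axis, percent) in every library of Naive, Ag and Ag+Costim (x axis), with a line at the group mean. In Srsf3, Srsf7 and Srsf10 all 5 Ag+Costim libraries lie below all Ag libraries, and Ag+Costim 4 lies highest of its group in Srsf3, at 62.0%.

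The SR genes differed widely in how much of their RNA was unproductive. In Ag, the unproductive share ran from 1.64 to 3.52% in Srsf9 to 67.8 to 77.8% in Srsf3. Srsf7, Srsf5 and Srsf10 stood at 40.9 to 56.7%, 40.0 to 56.9% and 30.3 to 39.8%. Srsf2, Srsf4 and Srsf6 lay at or under 11.9% in Ag, and Srsf1 and Srsf11 held 17.1 to 37.3% and 18.0 to 24.8%. The log2 ratio of unproductive to coding TPM was tested with limma over 8436 coding genes. Between Ag+Costim and Ag, 4 of the 10 members had a lower ratio, beside 21.8% called among the genes tested, 18.7% lower and 3.09% higher. The median over the members was -0.60, and it was -0.38 over all genes tested. The estimate was below 0 for all 10 members in all 3 comparisons, so none was higher at any threshold.

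**Figure D3:**
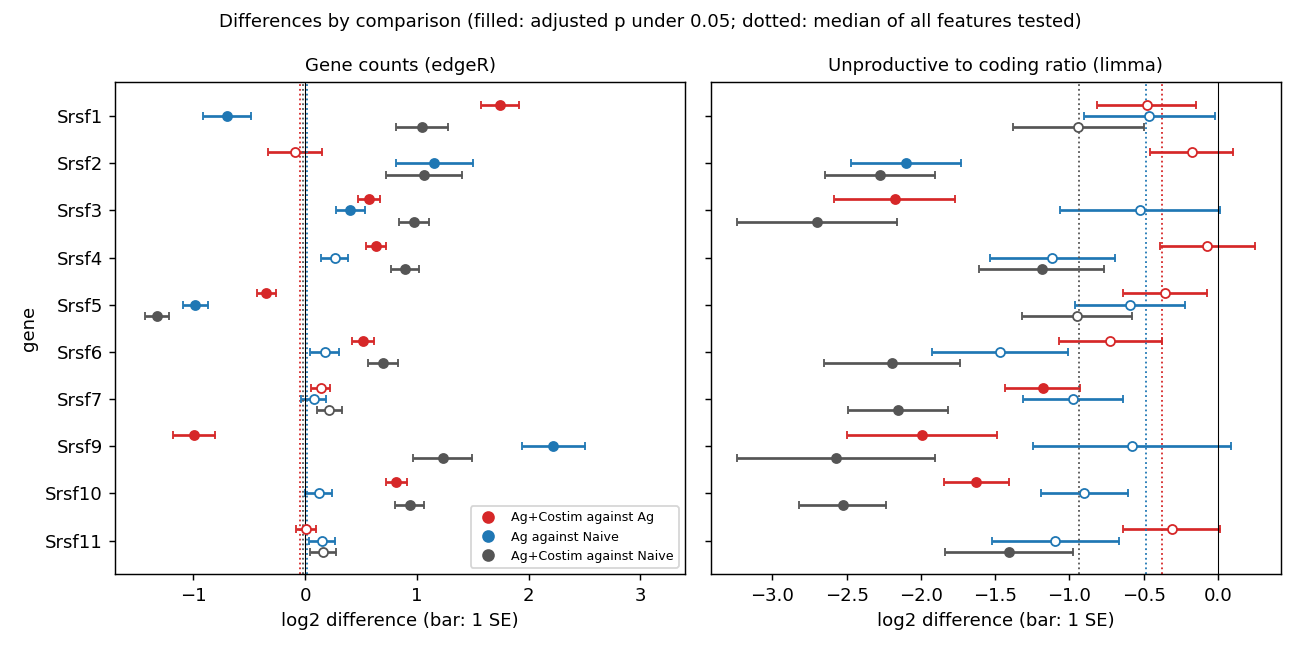
Log2 differences of each SR gene (y axis) in gene counts (left) and in the ratio of unproductive to coding TPM (right) for the 3 comparisons, with bars of 1 SE, filled points where the adjusted p was under 0.05, and dotted lines at the median of all features tested. Every ratio lies below 0, and the gene counts lie on both sides of it.

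Srsf3 had the largest difference in the ratio between Ag+Costim and Ag. Its unproductive share was 75.4 and 83.1% in Naive, 74.3, 67.8, 69.5, 74.5 and 77.8% in Ag and 38.7, 29.1, 29.3, 62.0 and 30.1% in Ag+Costim 1 to 5. Ag+Costim 4 stood far above the rest of its group and below every Ag library. The log2 ratio differed by -2.18 ± 0.41 (SE, adjusted p = 0.00306) between Ag+Costim and Ag in limma, and by -2.54 without Ag+Costim 4.

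The coding and the poison-exon isoform of Srsf3 moved apart. Srsf3-202, its only coding transcript, stood at 55.7 and 40.0 TPM in Naive, at 79.9, 87.5, 82.2, 71.6 and 49.4 TPM in Ag and at 317, 358, 319.9, 143 and 325 TPM in Ag+Costim. Ag+Costim 4 was again the lowest of its group and above every Ag library. The difference on transcript counts was 1.86 ± 0.26 (SE, adjusted p = 4.71e-04) in edgeR. Srsf3-201, which includes the poison exon shown above, stood at 77.6 and 121 TPM in Naive, 174, 129, 149, 171 and 139.6 TPM in Ag and 143, 92.9, 99.9, 184 and 101 TPM in Ag+Costim. It was higher in Ag than in Naive, by 1.10 ± 0.29 (SE, adjusted p = 0.0270) in edgeR, a call lost in 3 of the 12 fits that left out 1 library. Its difference between Ag+Costim and Ag was -0.41 ± 0.21 (SE, adjusted p = 0.191). In Ag the poison-exon isoform exceeded the coding one in all 5 libraries, and in Ag+Costim it did so only in Ag+Costim 4. The intron-retaining Srsf3-204 fell from 78.3 and 59.2 TPM in Naive to 25.0 to 43.5 TPM in Ag, a difference of -0.68 ± 0.21 (SE, adjusted p = 0.0473) in edgeR that was not called without the filter on low counts or in 10 of the 12 fits that left out 1 library.

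Srsf7 was called in no comparison of gene counts, but its isoforms, as estimated by StringTie, moved in opposite directions. The unproductive share was 64.5 and 65.3% in Naive, 56.7, 42.1, 40.9, 49.0 and 53.6% in Ag and 27.0, 28.6, 28.3, 32.9 and 29.9% in Ag+Costim. The 3 groups did not overlap, and the log2 ratio differed by -1.18 ± 0.26 (SE, adjusted p = 0.00641) between Ag+Costim and Ag in limma. The coding Srsf7-201 stood at 119, 64.4, 64.2, 138 and 58.9 TPM in Ag and at 294, 329, 249, 206 and 256 TPM in Ag+Costim, a difference of 1.48 ± 0.24 (SE, adjusted p = 0.00121) in edgeR. Srsf7 node 5 (chr17:80204122-80204232, minus strand) is a cassette exon that Srsf7-201 carries and Srsf7-203 lacks. Its Psi, the authors' value of the percent spliced in, was 0.938 in Ag and 0.942 in Ag+Costim. By StringTie, the share of Srsf7-201 in the gene's TPM averaged 16.9% in Ag and 44.8% in Ag+Costim. The rise of Srsf7-201 was therefore not seen in the Psi of node 5, and the cause was not tested. The decay isoform Srsf7-203, with the poison exon shown above, stood at 206 and 238 TPM in Naive, 182, 94.5, 84.1, 111 and 129 TPM in Ag and 86.9, 85.8, 61.1, 80.8 and 67.4 TPM in Ag+Costim. It was lower in Ag+Costim than in Ag, with a log2 difference of -0.77 ± 0.20 (SE, adjusted p = 0.0184) in edgeR, although Ag 3 lay within the range of Ag+Costim. The intron-retaining Srsf7-207 was lower as well, at -1.26 ± 0.25 (SE, adjusted p = 0.00463), with Ag 1 inside the range of Ag+Costim. A second coding transcript, Srsf7-208, was lower at -1.61 ± 0.48 (SE), but it varied from 21.3 to 176 TPM within Ag, and the call was lost in 9 of the 12 fits that left out 1 library. Among the Ag libraries, Ag 1 was highest in Srsf7-203 and lowest in Srsf7-208.

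**Figure D4:**
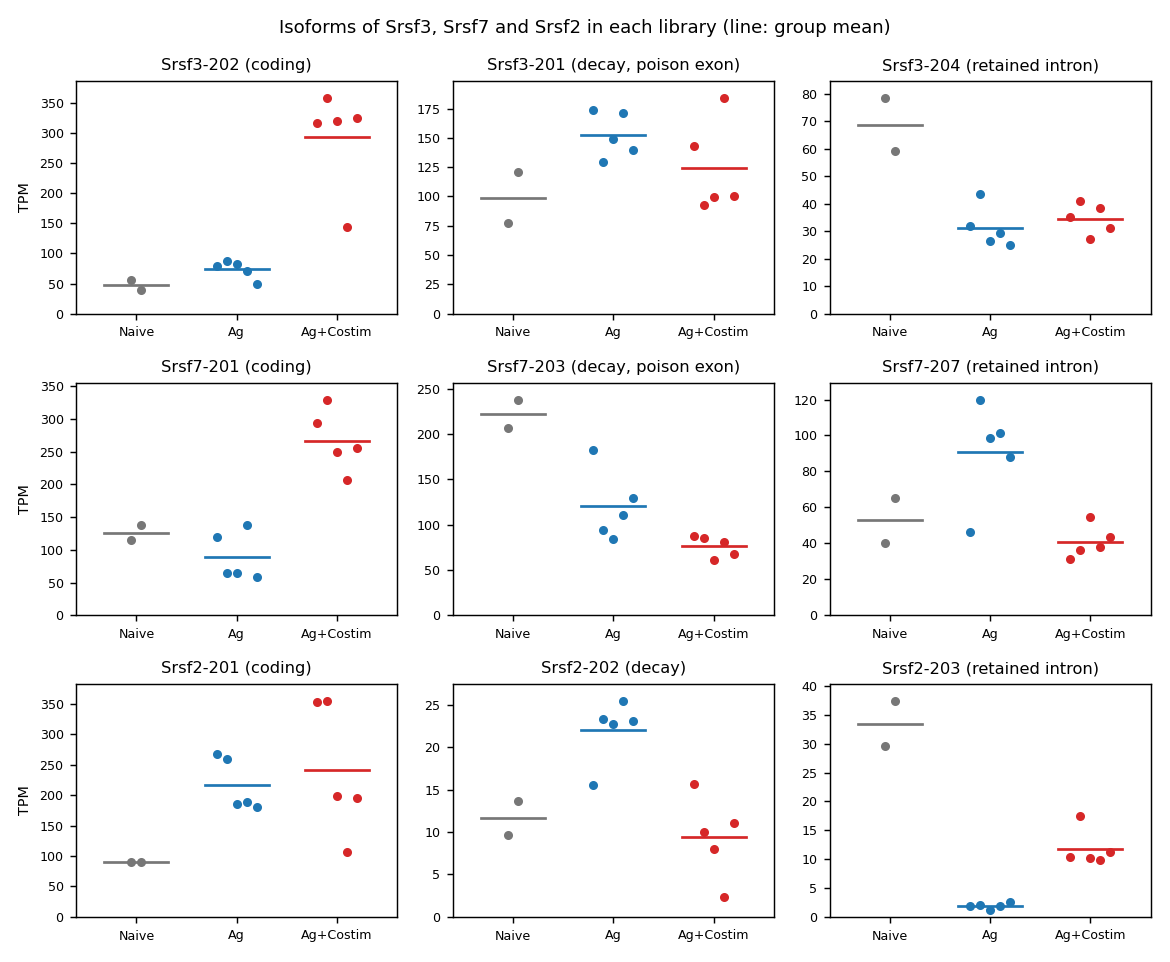
TPM (y axis) of the coding, decay and intron-retaining isoforms of Srsf3, Srsf7 and Srsf2 in every library of Naive, Ag and Ag+Costim (x axis), with a line at the group mean. Srsf3-202 and Srsf7-201 lie higher in Ag+Costim than in Ag, and Srsf2-203 lies highest in Naive and lowest in Ag.

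Srsf10 and Srsf9 were the other members whose ratio fell between Ag and Ag+Costim. In Srsf10 the unproductive share was 56.2 and 48.2% in Naive, 37.9, 39.8, 30.3, 38.9 and 38.0% in Ag and 17.7, 16.9, 14.0, 15.6 and 15.6% in Ag+Costim. The groups did not overlap, and Ag 3 was the lowest of its group. The log2 ratio differed by -1.63 ± 0.22 (SE, adjusted p = 4.34e-04) in limma. Most of the unproductive RNA was Srsf10-207, a transcript with no reading frame, which was lower in Ag+Costim at -1.001 ± 0.21 (SE, adjusted p = 0.00552), while the coding Srsf10-202, Srsf10-204 and Srsf10-205 were higher by 0.86 to 1.35 on the log2 scale in edgeR. GENCODE vM21 gives Srsf10 no decay or retained-intron transcript, so its ratio could not be computed when only those 2 types counted as unproductive. In Srsf9 the unproductive share was small in every library, with 3.86 and 3.05% in Naive, 1.64, 2.90, 2.49, 1.86 and 3.52% in Ag and 0.422, 0.173, 0.936, 1.79 and 0.350% in Ag+Costim. Ag+Costim 4 lay inside the range of Ag, and the other 4 lay below it. Its ratio differed by -1.99 ± 0.50 (SE, adjusted p = 0.0146) between Ag+Costim and Ag in limma. All of the unproductive RNA was assigned to Srsf9-205, with the poison exon shown above, and the main coding transcript Srsf9-201 was lower too, at -0.89 ± 0.22 (SE, adjusted p = 0.0136) in edgeR.

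Srsf2 was the member whose ratio was called between Ag and Naive, 1 of 10, beside 14.1% called among the genes tested, 11.3% lower and 2.83% higher. Its unproductive share was 29.5 and 34.8% in Naive and 6.31, 9.29, 11.4, 11.9 and 11.8% in Ag, and the log2 ratio differed by -2.10 ± 0.37 (SE, adjusted p = 0.00492) in limma. Without Naive 2 the ratio was -1.93 with an adjusted p of 0.0731. The retained-intron transcript Srsf2-203 was the most abundant unproductive transcript of the gene in Naive. It stood at 29.6 and 37.3 TPM in Naive, 1.93, 2.12, 1.20, 1.87 and 2.55 TPM in Ag and 10.4, 17.4, 10.3, 9.83 and 11.2 TPM in Ag+Costim. The 3 groups were apart, with Ag lowest. In edgeR it was lower in Ag than in Naive, at -3.65 ± 0.27 (SE, adjusted p = 1.51e-05), and higher in Ag+Costim than in Ag, at 2.50 ± 0.23 (SE, adjusted p = 3.15e-05). The Psi of a cassette exon that Srsf2-203 carries, given below, was lower in Ag+Costim than in Ag.

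The other Srsf2 isoforms moved differently from Srsf2-203. The main coding transcript Srsf2-201 was higher in Ag than in Naive by 1.73 ± 0.42 (SE, adjusted p = 0.0176) in edgeR, a call lost with either Naive library left out, and its difference between Ag+Costim and Ag was 0.04 ± 0.29. The decay transcript Srsf2-202 was lower in Ag+Costim than in Ag at -1.34 ± 0.39 (SE, adjusted p = 0.0339) in edgeR, a call lost in 7 of the 12 fits that left out 1 library. Srsf2-206, a second coding transcript at 11.4 to 18.2 TPM in Ag and 1.47 to 3.85 TPM in Ag+Costim, was lower too, at -2.57 ± 0.29 (SE, adjusted p = 1.18e-04). Srsf2-202, Srsf2-203 and Srsf2-206 share a cassette exon (node 4, chr11:116851648-116851751, minus strand) that Srsf2-201 lacks. On the opposite strand, Mettl23 and Mfsd11 overlap Srsf2, and the library kit does not mark strand, so reads from these genes cannot be told apart where they overlap. The same limit holds for Srsf1 with Gm11508 and for Srsf4 with Gm12992 on the opposite strand, and for Srsf4 with A930004J17Rik and Srsf11 with Gm43362 on the same strand.

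In Srsf1 the ratio was called in no comparison. Its unproductive share was 37.3, 27.1, 17.1, 23.3 and 20.9% in Ag and 19.5, 11.3, 22.9, 22.4 and 21.2% in Ag+Costim, with overlapping ranges. The decay types alone held 5.85 to 11.5% of the gene's TPM in Ag and 2.17 to 4.38% in Ag+Costim, without overlap. Coding and intron-retaining isoforms of Srsf1 were higher together in Ag+Costim. The coding Srsf1-205 stood at 19.2, 14.4, 12.2, 24.2 and 12.7 TPM in Ag and 86.7, 109, 73.2, 46.1 and 73.9 TPM in Ag+Costim, a difference of 2.13 ± 0.23 (SE, adjusted p = 9.68e-05) in edgeR. The lowest Ag+Costim library exceeded the highest of Ag. The coding Srsf1-201 was higher by 1.14 ± 0.32 (SE), a call lost in 4 of the 12 fits that left out 1 library, and the intron-retaining Srsf1-203 was higher by 1.56 ± 0.30 (SE). The decay transcript Srsf1-204 was not called, at 0.33 ± 0.27 (SE, adjusted p = 0.442) in edgeR, and its TPM ranges overlapped.

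Srsf5 had no called ratio in any comparison either. The coding Srsf5-201 stood at 6.97, 3.98, 4.09, 10.5 and 20.4 TPM in Ag and at 15.7, 51.3, 52.0, 49.4 and 4.53 TPM in Ag+Costim, a log2 difference of 1.81 ± 0.68 (SE, adjusted p = 0.0852) in edgeR, and the coding Srsf5-202, Srsf5-203 and Srsf5-205 differed by -0.34, -0.33 and -0.34, also without a call. Srsf5-201 was high in 3 of the 5 Ag+Costim libraries, and its groups overlapped. The most abundant of its unproductive transcripts was the intron-retaining Srsf5-212, at 236 and 294 TPM in Naive, 89.2, 109, 70.6, 127 and 117 TPM in Ag and 81.9, 69.4, 69.5, 82.3 and 83.4 TPM in Ag+Costim. It was lower in Ag than in Naive, with a log2 difference of -0.91 ± 0.15 (SE), and lower again in Ag+Costim than in Ag, at -0.51 ± 0.12 (SE). Srsf5-206, without a reading frame, was lower in Ag than in Naive at -1.41 ± 0.36 (SE), and at -0.78 without Naive 2. The coding Srsf5-205 was lower at -0.75 ± 0.23 (SE), a call lost in 8 of the 12 fits that left out 1 library.

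In Srsf4, Srsf6 and Srsf11 the ratio of Ag+Costim against Ag differed by -0.07 ± 0.32, -0.72 ± 0.35 and -0.31 ± 0.33 (SE) in limma, and none was called. In Srsf4 the coding Srsf4-202 was higher in Ag+Costim by 0.71 ± 0.11 (SE), and in Srsf6 the coding Srsf6-203 by 0.62 ± 0.11 (SE), with Ag+Costim above Ag in every library. The decay isoform Srsf4-203, with the poison exon shown above, was higher too. It stood at 1.56, 3.30, 1.69, 1.51 and 2.47 TPM in Ag and at 4.65, 4.92, 3.88, 3.42 and 5.34 TPM in Ag+Costim without overlap, a difference of 0.96 ± 0.30 (SE, adjusted p = 0.0418) in edgeR, and it was the decay transcript of the family called higher in this comparison. In Srsf11, where 11 of 19 annotated transcripts retain an intron, Srsf11-219 of that type was lower at -0.88 ± 0.15 (SE, adjusted p = 0.00196) in edgeR and so was the coding Srsf11-204 at -0.59 ± 0.17 (SE), a call lost in 6 of the 12 fits that left out 1 library, while Srsf11-201, also coding, ran from 14.0 to 133 TPM within Ag+Costim. Srsf11-206 with its poison exon was estimated at 0 in 5 of the 12 libraries.

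Of the 85 annotated SR transcripts, 69 passed the filter on low counts. Between Ag+Costim and Ag, 14 were higher and 11 lower in edgeR, beside 21.2% called among all 50792 transcripts tested, 10.7% higher and 10.4% lower. By type, 9 of 25 coding transcripts were higher and 4 lower, 1 of 13 decay transcripts was higher and 3 lower, and 4 of 23 retained-intron transcripts were higher and 3 lower. The shares called within each type over all transcripts were not computed, here or for the comparisons below. Over all coding genes, as given above, unproductive types also held less of the TPM in Ag than in Naive, and less in Ag+Costim than in Ag. Among the 14 was Srsf5-207, named here after its values were seen, which had 0 counts in all 5 Ag libraries and at most 26 in Ag+Costim. Between Ag and Naive, 10 were higher and 12 lower, beside 16.2% of all transcripts called, 9.13% higher and 7.05% lower. Retained-intron transcripts made up 9 of the 12, and 8 of the 10 were coding. Leaving out Naive 1 took these counts to 4 higher and 5 lower, and leaving out Naive 2 to 2 higher and 1 lower. Between Ag+Costim and Naive, 12 were higher, all of them coding, and 13 were lower, of which 7 retained an intron, beside 21.8% of all transcripts called, 11.5% higher and 10.2% lower. Without Naive 1 these counts were 7 and 7.

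Between Ag+Costim and Naive, 8 of the 10 ratios were lower, beside 31.8% called among the genes tested, 29.9% lower and 1.91% higher. The median over the members was -2.17, against -0.94 over all genes tested. Srsf1 and Srsf5 were the members not called. Srsf3 differed by -2.70 ± 0.54 (SE, adjusted p = 0.00395), Srsf9 by -2.57 ± 0.67 and Srsf10 by -2.53 ± 0.29 (SE) in limma. With either Naive library left out, 5 ratios were called. The calls on Srsf9 and Srsf11 were lost in both of these fits and that on Srsf3 without Naive 2 (adjusted p = 0.0552). Srsf4 was just past the threshold in limma (adjusted p = 0.0497) and was not called in 10 of the 12 fits that left out 1 library (-0.37 without Naive 1).

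Psi, the percent spliced in of a node on a scale from 0 to 1, was given by the authors from Whippet as 1 value per group, for Ag and Ag+Costim. It has no replicate check and was not tested here. Of the 77 SR nodes, 3 differed by more than 0.1 between the groups, beside 7.39% of all 115403 nodes. None of the 48 cassette exons of the family passed, beside 2.03% of all cassette exons, and 2 of the 3 retained-intron nodes did, beside 14.1%.

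**Figure D5:**
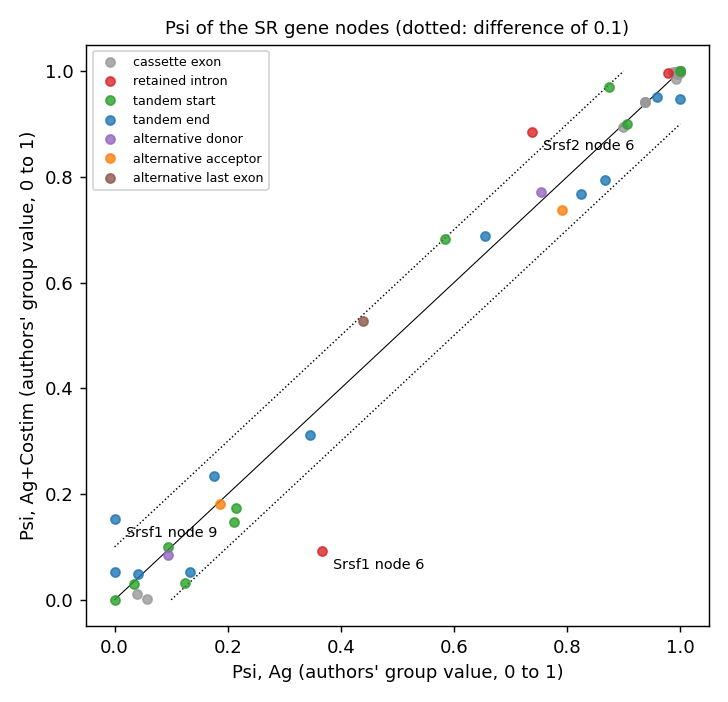
Psi of the 77 SR nodes in Ag (x axis) and Ag+Costim (y axis), on a scale from 0 to 1, coloured by node type, with dotted lines at a difference of 0.1. The 3 nodes outside the lines are Srsf1 node 6, Srsf1 node 9 and Srsf2 node 6, and most cassette exons sit near 1 in both groups.

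In Srsf1, the intron at node 6 (chr11:88049216-88049411, plus strand, 196 bases) had a Psi of 0.366 in Ag and 0.0924 in Ag+Costim. It is exonic only in Srsf1-201, whose share of the gene's TPM averaged 38.5% in Ag and 26.7% in Ag+Costim. Srsf1 node 9 (chr11:88049977-88050410), a tandem end site inside the last exon, went from 0.000521 to 0.152. In Srsf2, the retained intron at node 6 (chr11:116850354-116850855, minus strand, 502 bases) went from 0.738 to 0.884. It is exonic only in Srsf2-201, the main coding transcript. Among cassette exons at low inclusion, singled out after their values were seen, Srsf2 node 4 stood at 0.0571 in Ag and 0.00230 in Ag+Costim, and Srsf6 node 4 (chr2:162932815-162932979, plus strand) at 0.0390 and 0.0106. They are carried by the decay transcripts Srsf2-202 and Srsf6-201. The coding Srsf2-206 and Srsf6-202 and the intron-retaining Srsf2-203 and Srsf6-204 carry them as well. By StringTie, the share of Srsf2-203 in the gene's TPM averaged 0.768% in Ag and 4.99% in Ag+Costim. The rise of Srsf2-203 was therefore not seen in the Psi of node 4, and the cause was not tested.

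The genes that act on SR proteins or on their unproductive transcripts were counted as lists, with the Ag libraries shared between comparisons. Among all genes tested, 26.6% were higher and 26.5% lower in Ag+Costim against Ag, and 24.2% were higher and 22.5% lower in Ag against Naive. Of 11 SR kinases and import factors, edgeR called 2 higher and 6 lower with costimulation than with antigen alone, and 1 was higher and 6 lower in Ag than in Naive. The log2 differences in this list ran from -1.03 to 1.15 (median -0.54) between Ag+Costim and Ag. Between Ag and Naive they ran from -1.13 to 9.66 (median -0.42). The Naive level of the gene at 9.66 is not given here, and a difference of this size is unreliable where counts are very low. Srpk1, a cytoplasmic SR protein kinase, fell in both (-0.49 and -0.42 on the log2 scale), and so did the nuclear kinase Clk1 (-1.03 and -0.65). Tnpo3, the importin that carries phosphorylated SR proteins into the nucleus, was lower in Ag than in Naive (-0.63) and higher in Ag+Costim than in Ag (1.15). Of 28 SR-related proteins with arginine-serine repeats, 16 were higher and 9 lower with costimulation than with antigen alone, and 15 were lower in Ag than in Naive. U2af2, the large subunit of the factor that binds the polypyrimidine tract, differed by 2.25 between Ag+Costim and Ag and by -1.39 between Ag and Naive, and Cherp by 1.97 and -1.52.

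Of 15 factors of nonsense-mediated decay and its exon junction complex, 8 were higher and 3 lower with costimulation, beside 26.6% and 26.5% of all genes, and 6 were higher and 8 lower in Ag than in Naive, beside 24.2% and 22.5%. Upf1, the helicase at the centre of the pathway, was 2.29 ± 0.21 (SE, adjusted p = 1.14e-06) higher in Ag+Costim than in Ag on the log2 scale in edgeR, and differed by -1.47 between Ag and Naive. Smg5 and Casc3 differed by 1.34 and 1.05 between Ag+Costim and Ag. Upf3b was lower in Ag+Costim than in Ag (-0.78). Their part in the isoform changes of the SR genes was not tested. Of 19 other splicing regulators, which share 6 genes with the list of SR-related proteins, 13 were higher and 2 lower with costimulation, and 4 were higher and 10 lower in Ag than in Naive. Hnrnpa1 was higher in both (1.07 and 0.93). Their ratios of unproductive to coding TPM were lower in Ag+Costim than in Ag for 6 of 19 and higher for 1. Among all 8436 genes tested, 18.7% were lower and 3.09% higher. Of 27 SR-related proteins, 11 had a lower ratio and 2 a higher one, and of 13 decay factors 4 had a lower ratio and 1 a higher one. Of 10 SR kinases and import factors, 1 had a lower ratio and 0 a higher one.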

How the data were processed

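Poly(A) RNA was amplified with SMART-Seq v4 and made into Nextera XT libraries, which do not mark strand, and was read as single ends of 100 bases. The authors aligned reads to mm10 with HISAT2 2.1.0, sorted them with SAMtools 1.9 and quantified them with StringTie 2.1.0, and they deposited gene and transcript counts, with whole numbers per feature, and gene FPKM. Psi was deposited as a fraction per node, from Whippet, 1 value per group. The difference and probability columns beside it hold the authors' own comparison and were not used. Features without a GENCODE vM21 identifier (0.0508% to 0.121% of counts per library) were left out. The libraries held 23976932 to 49258758 counts. Depth behind Psi was not given in the sources used here.

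Counts were fitted with edgeR 4.0.16 (quasi-likelihood, robust, TMM, filterByExpr, all 12 libraries, group only) in R 4.3.3, over 18817 genes and 50792 transcripts, with Benjamini-Hochberg adjustment over all of them at 0.05, two-sided. CPM are counts scaled by TMM library sizes, except in the marker sums, which were scaled by the library's total counts. TPM are transcript counts per kb of annotated length, scaled to the same total in every library. The log2 ratio of unproductive to coding TPM, with 0.1 added to each, was fitted with limma 3.58.1 (trend, robust) over 8436 coding genes with a mean of at least 1 TPM. Both were tested on simulated data. The alternatives were DESeq2 1.42.0, upper-quartile scaling, no low-count filter, a length correction, FPKM with pseudocounts, other definitions of the ratio, the replicate number as a block, and each library left out. The members and gene lists were chosen with earlier results of these data known. Transcripts were named where they held at least 5% of their gene's TPM in the mean of a group, nodes where Psi differed by more than 0.1, and list genes where they were called in both comparisons with Ag. Srsf9-205, Srsf4-203, Srsf11-206, Srsf5-207, Srsf6-202, Srsf7 node 5 and the low-inclusion cassette exons fall outside this rule.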

Additional observations from a re-analysis of the deposited data

Results flagged for a closer look

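In 40 groups of 5 libraries (CPM and log2 ratio of 10 genes in Ag and Ag+Costim), a library was called apart when its gap to the nearest other library was large for the range of the group by Dixon's criterion, which chance meets in about 5% of groups. It was met 3 times. Srsf1 stood at 158 CPM in Ag 4, above 88.2 to 103 in the other Ag libraries. The log2 ratio of unproductive to coding TPM of Srsf1 was -2.96 in Ag+Costim 2, below the other 4 libraries of that group. The log2 ratio of Srsf10 was -1.20 in Ag 3, below the other Ag libraries.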

How the results depend on the processing

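Between Ag+Costim and Ag, all 12 fits that left out 1 library called 5 SR genes higher and 2 lower and 4 ratios lower, and 11 to 14 transcripts higher and 8 to 11 lower. Against Naive, the 12 fits include 2 that leave 1 Naive sample, which is then assumed to vary like the other groups. The ranges were 1 to 4 genes higher and 1 to 2 lower, 2 to 12 transcripts higher and 1 to 12 lower, and 1 to 3 ratios lower for Ag. For Ag+Costim they were 6 to 7 genes higher and 1 lower, 7 to 14 transcripts higher and 7 to 14 lower, and 5 to 8 ratios lower. The estimate changed sign in these fits for the gene Srsf2 (-0.26 to 0.11), the gene Srsf11 (-0.0573 to 0.0671) and the ratio of Srsf4 (-0.21 to 0.0323) between Ag+Costim and Ag, and for the gene Srsf7 between Ag and Naive (-0.0470 to 0.21).

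Other settings changed the sign for Srsf7 and Srsf11 between Ag+Costim and Ag with upper-quartile scaling (-0.0607 and -0.19), for Srsf11 with the 2 groups fitted alone (-0.0138) and with a length correction (-0.33), and for Srsf7 on FPKM with a pseudocount of 1 or 0.1 (-0.0505 and -0.0506). With these pseudocounts, in that order, the sign on FPKM also changed for Srsf6 (-0.0761 and -0.0772), Srsf10 (-0.29 in both) and Srsf11 (-0.18 in both) between Ag and Naive and for Srsf11 between Ag+Costim and Naive (-0.0736 and -0.0742). With counts not divided by length the ratios of Srsf2 and Srsf11 between Ag+Costim and Ag were 0.0234 and 0.0860. Between Ag and Naive, the length correction gave 7 genes higher and 1 lower, and lower ratios numbered 3 without division by length, 5 with a pseudocount of 1 and 2 with decay and retained-intron types only. A Psi threshold of 0.05 gave 16 nodes and 0.2 gave 1. The cause of these changes was not tested.

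Same-numbered Ag and Ag+Costim libraries had correlations of deviations of 0.0159 to 0.0951, and 3 of 5 correlated best with their own number. Correlations this small do not settle whether the numbers mark pairs, and the main fits did not pair them. With the replicate number as a block, 5 SR genes were higher and 2 lower, 13 transcripts higher and 8 lower, and 4 ratios lower between Ag+Costim and Ag. With the block, 1 gene was lower, 6 transcripts were higher and 5 lower between Ag and Naive, and 7 transcripts were lower between Ag+Costim and Naive. Transcript levels rest on the assignment of short single-end reads, the Naive group on 2 libraries, and Psi on 1 value per group.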
